A study of Mus musculus with 4 samples.

Results

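Aminoacyl-tRNA synthetases load each tRNA with its amino acid. They were followed here in mouse bone marrow-derived macrophages of PERK wild-type and PERK knockout genotype. PERK is the endoplasmic reticulum stress kinase encoded by Eif2ak3. The members were taken by gene symbol alone: every symbol made of a single amino acid letter followed by "ars", with or without a final 1 or 2, together with Eprs, Farsa and Farsb. This gave 37 of the 15114 Entrez-numbered genes listed in any library. Symbols ending in 2, of which there were 17, were taken as mitochondrial, and the other 20 as cytosolic or shared. All 37 were listed in all 4 libraries. A gene entered the test when its mean over the libraries was at least 1 FPKM (fragments scaled to gene length and to the size of the library), which all 20 cytosolic and 14 of the 17 mitochondrial members did.

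The RNA came from C57BL/6 mice homozygous for a floxed Eif2ak3 allele. Control animals carried the floxed alleles only (Eif2ak3 fl/fl, called wild type). Knockout animals also carried LysMcre (LysMcre x Eif2ak3 fl/fl), in which the lysozyme 2 gene drives Cre recombinase in myeloid cells. The genotypes thus differ in the LysMcre allele as well as in Eif2ak3 deletion, and the 2 cannot be told apart here. Marrow cells were grown with 20 ng/mL of M-CSF for 7 days, and both genotypes then received 20 ng/mL of IL-4 for 24 h, so all groups share the IL-4 stimulus. There were 2 libraries per genotype, numbered 1 and 2. The labels do not say whether the libraries of a genotype came from separate animals or cultures, so the p-values measure only the spread between these libraries. The ages of the animals are not given in the sources used here.

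In animal cells the cytosolic enzymes serve the main ribosomes and the mitochondrial enzymes serve the mitochondrial ribosomes, and most amino acids have a separate nuclear gene for each compartment. Phosphorylation of eIF2α by PERK or a related kinase slows translation while favouring that of ATF4, a transcription factor whose known targets include many cytosolic synthetase genes. ATF4 binds with C/EBP partners at composite elements that lie close to the start sites of such genes. Several cytosolic synthetases are held in a multisynthetase complex, and a few genes, such as Gars and Kars, make enzymes for both compartments.

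The libraries differed as a whole. Knockout replicate 2 had 41.1% of its FPKM on Entrez-numbered genes, against 54.8% to 58.9% in the other 3 libraries, and it alone listed 29618 of the features. The median tested gene had a log2 change of -0.14 in the deposited values, knockout minus wild type on the log2(FPKM + 1) scale. Changes below are given relative to that median gene unless stated otherwise, and p-values come from the deposited values. Eif2ak3 measured 10.9 and 8.88 FPKM in the wild-type pair and 6.55 and 4.88 FPKM in knockout, and Lyz2, at the Cre locus, 627 and 699 FPKM against 253 and 201 FPKM. Neither passed over all tested genes, with limma adjusted p-values of 0.776 and 0.413. Eif2ak3 transcript was still listed in the knockout libraries. Of 8 macrophage markers all 8 averaged at least 1 FPKM, with a summed level of 2140 to 3334 FPKM. Lyz2 is among these markers, so its lower knockout values enter the sum. Summed levels of the T cell, B cell, neutrophil, dendritic cell, erythroid and fibroblast lists reached at most 3.32 FPKM, and Elane, Alas2, Hba-a1 and Hbb-bs were at 0 in all libraries. In bulk RNA, fewer cells of a type and less RNA per cell cannot be told apart.

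Relative to the median gene, the cytosolic synthetases stood lower in the knockout libraries and most tested mitochondrial ones did not. In the deposited values both class medians were negative, at -0.27 for cytosolic and -0.05 for mitochondrial genes. Of 20 cytosolic genes, 18 were under the median gene, with a median log2 change of -0.13 and a range from -0.36 for Cars to +0.05 for Farsa. Of 14 tested mitochondrial genes, 4 were under it, with a median of +0.09 and a range from -0.18 for Sars2 to +0.32 for Lars2. The genes with the most negative changes, from Cars to Yars in the plot of changes, were all cytosolic, and those with the most positive, from Lars2 to Aars2, all mitochondrial. No synthetase passed the threshold: limma, a moderated linear model over all 9501 tested genes with Benjamini-Hochberg adjustment, called 0 of 34 at an adjusted p of 0.05 (lowest adjusted p = 0.776). By the same rule 0.0211% of all tested genes were called lower and 0% higher. At an unadjusted p under 0.05, 5 cytosolic genes and 0 mitochondrial genes were lower and 0 of either class higher, where 3.52% of all tested genes were lower and 0.705% higher.

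**Figure D1:**
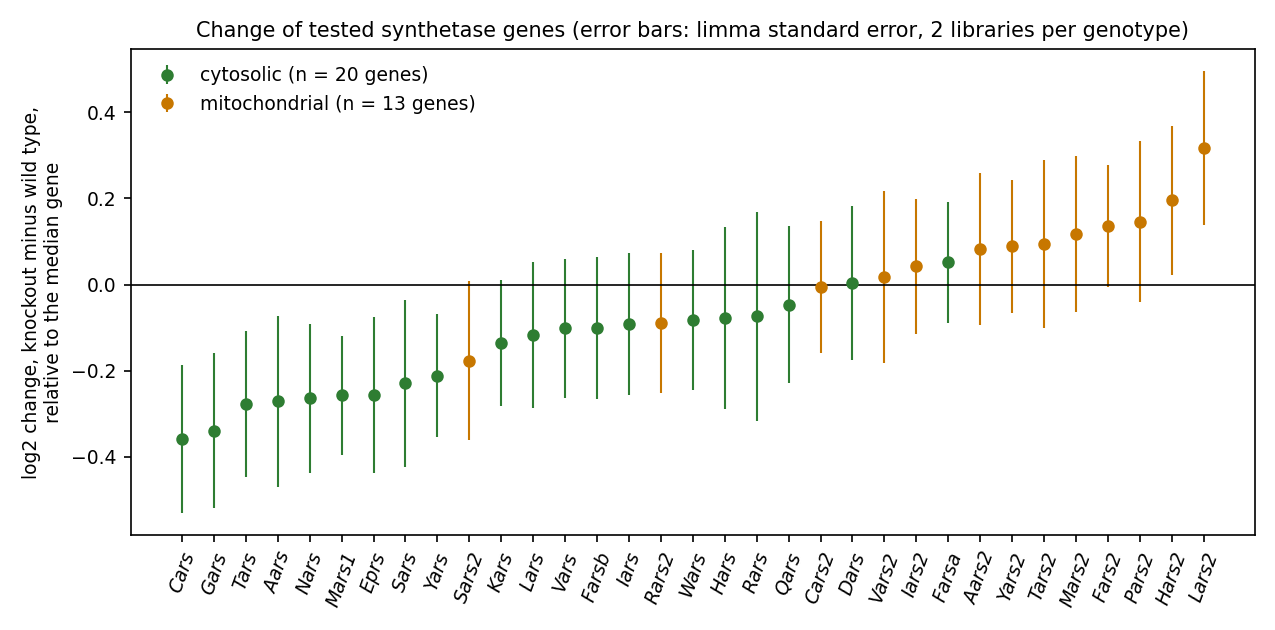
The log2 change of 33 tested synthetase genes, knockout minus wild type on the log2(FPKM + 1) scale, is drawn relative to the median of all tested genes, with limma's standard error from 2 libraries per genotype. Cytosolic genes run from -0.36 (Cars) to +0.05 (Farsa) and mitochondrial genes from -0.18 (Sars2) to +0.32 (Lars2).

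The class medians leaned on single libraries. The cytosolic median stayed negative whichever library was left out, at -0.12 without wild-type replicate 1, -0.25 without wild-type replicate 2, -0.21 without knockout replicate 1 and -0.10 without knockout replicate 2. The mitochondrial median was 0.17 without knockout replicate 1, 0.04 without wild-type replicate 2 and turned to -0.02 without knockout replicate 2. The count of mitochondrial genes under the median gene went from 4 to 9 of 14 without knockout replicate 2, to 6 without wild-type replicate 2 and to 10 when all listed features set the median. The count of 5 cytosolic genes at an unadjusted p under 0.05 became 0 without wild-type replicate 1 or without knockout replicate 2, 2 without wild-type replicate 2 and 14 without knockout replicate 1. In those 4 fits, 1.73%, 2.47%, 4.19% and 11.7% of all tested genes were lower by the same rule. After median-ratio scaling of the libraries the count was 3, where 1.4% of all tested genes were lower and 1.65% higher, and after upper-quartile scaling it was 0 (0.737%).

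Some cytosolic synthetase genes held the letters of the element that C/EBP-ATF4 dimers are known to bind near a RefSeq start site. RefSeq promoter windows on GRCm38.p6, the build of the mm10 files, run from 250 bases before the start site to 50 bases after it. They were matched by gene number for 13 cytosolic and 14 mitochondrial members. Each window was searched for TGATGNAA, the core of the C/EBP-ATF response element, and its reverse complement TTNCATCA. The core occurred in 5 of 13 cytosolic genes (38.5%), in 0 of 14 mitochondrial genes and in 2.68% of the 7799 tested genes with a window. The mitochondrial count of 0 is near that share of tested genes and does not mark the class off from them. The narrower form TGATGCAA, which is contained in that core, occurred in 4 of 13 cytosolic genes against 0.692% of tested genes. The 5 genes were Aars (alanine), Gars (glycine), Iars (isoleucine), Tars (threonine) and Yars (tyrosine). Their matches are printed with up to 40 bases of flank and no further than base 30 of the transcript, read 5′ to 3′ along the gene's own strand, with the match in capitals.

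Aars, first match, chr8:111033690-111033777, plus strand: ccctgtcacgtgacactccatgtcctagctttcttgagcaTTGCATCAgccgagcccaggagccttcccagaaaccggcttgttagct
Aars, second match, chr8:111033811-111033871, plus strand: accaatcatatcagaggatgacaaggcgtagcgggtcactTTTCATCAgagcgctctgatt
Gars, chr6:55037931-55038018, plus strand: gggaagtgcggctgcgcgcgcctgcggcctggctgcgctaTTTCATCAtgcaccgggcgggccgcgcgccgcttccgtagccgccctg
Iars, chr13:49682097-49682159, plus strand: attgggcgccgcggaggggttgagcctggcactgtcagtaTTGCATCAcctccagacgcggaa
Tars, chr15:11399629-11399713, minus strand: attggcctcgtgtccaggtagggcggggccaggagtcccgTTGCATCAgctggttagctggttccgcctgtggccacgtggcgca
Yars, chr4:129189866-129189932, plus strand: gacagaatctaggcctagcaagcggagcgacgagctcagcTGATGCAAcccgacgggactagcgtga

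The matches lay close to the start sites. The first base of the match was 112 bases upstream of the RefSeq start site used in Aars, 30 in Gars and 15 in Tars, and it was base 10 of the transcript for the second Aars match, base 8 in Iars and base 4 in Yars. In Aars and Yars that start site lies inside the annotated gene, downstream of the first annotated base. Of these 5 genes, 4 had log2 changes between -0.21 and -0.34, and Iars had -0.09. Among the 8 cytosolic genes with a window and no match, Eprs, Mars1 and Sars had changes of -0.26, -0.26 and -0.23, Kars -0.14, Farsb -0.10, Qars -0.05, Dars 0.0039 and Farsa +0.05. A match is a string of letters in a window and does not show that a factor binds there. No window was matched for Cars, Hars, Lars, Nars, Rars, Vars, Wars, Hars2 and Pars2.

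Among cytosolic synthetases outside the multisynthetase complex, 11 of 12 had changes under that of the median gene, and their median was -0.22. Cars (Entrez 27267, chromosome 7, 143557230 to 143600090), which charges cysteine tRNA, measured 24.7 and 22.1 FPKM in the wild-type pair and 18.5 and 14.2 FPKM in knockout. Its knockout mean was 69.97% of the wild-type mean, and its change of -0.36 (SE 0.17) stood at the 2.69th percentile of all tested genes. Gars (Entrez 353172, chromosome 6, 55038001 to 55079504) makes the glycine enzyme of both compartments. It measured 54.2 and 45.6 FPKM in the wild-type pair against 39.5 and 31.8 FPKM in knockout, a change of -0.34 (SE 0.18). In both genes each knockout library lay below each wild-type library. Their deposited changes of -0.50 and -0.48 had unadjusted limma p-values of 0.0241 and 0.0336. After median-ratio scaling the limma p-values were 0.0303 and 0.0455, and after upper-quartile scaling 0.0505 and 0.0799.

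The other members outside the complex that differed most followed the same order of libraries. Tars, which charges threonine tRNA, measured 33.5 and 28.8 FPKM in the wild-type pair and 25.6 and 20.7 FPKM in knockout (change -0.28, SE 0.17). Aars, the alanine enzyme, measured 68.8 and 58.1 FPKM against 55.0 and 40.7 FPKM (change -0.27, SE 0.20). Nars, the asparagine enzyme, measured 92.0 and 80.5 FPKM against 70.2 and 59.8 FPKM (change -0.26, SE 0.17). In these 3 genes wild-type replicate 1 was highest, knockout replicate 2 lowest, and the genotypes did not overlap. Sars, the serine enzyme, measured 39.2 and 32.7 FPKM against 31.96 and 23.6 FPKM (change -0.23, SE 0.19). Yars, the tyrosine enzyme, measured 24.0 and 21.9 FPKM against 18.4 and 17.1 FPKM (change -0.21, SE 0.14). Sars and Yars showed the same order, with knockout replicate 1 of Sars only just below wild-type replicate 2, and after median-ratio scaling the Sars libraries overlapped. Aars shares 3974 bases of its span with Ddx19b, which stood at 4.23 to 4.7 FPKM in the 4 libraries, and whether reads were counted by strand is not stated.

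The remaining members outside the complex lay nearer the median gene. Farsa and Farsb encode the alpha and beta subunits of the cytosolic phenylalanine enzyme. Farsa measured 20.9 and 22.0 FPKM in the wild-type pair and 19.3 and 21.0 FPKM in knockout, with overlapping genotypes, and it was the only cytosolic gene that was not lowest in knockout replicate 2. Farsb measured 25.9 and 27.1 FPKM against 25.1 and 19.8 FPKM. The 2 subunits of this enzyme thus had changes of +0.05 and -0.10, each smaller than its standard error (0.14 and 0.17). Vars, the valine enzyme, measured 22.6 and 18.5 FPKM in the wild-type pair against 18.2 and 16.1 FPKM in knockout. Hars, the histidine enzyme, measured 33.7 and 29.7 FPKM against 33.0 and 22.2 FPKM. Wars, the tryptophan enzyme and a gene known to be induced by interferon, measured 21.8 and 19.3 FPKM against 19.4 and 15.7 FPKM. In Hars and Wars knockout replicate 1 lay above wild-type replicate 2, and their changes were both -0.08.

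Of the 8 members of the multisynthetase complex, 7 had changes under that of the median gene, and their median was -0.10. Mars1 (Entrez 216443, chromosome 10, 127296221 to 127311786), the methionine enzyme, measured 21.7 and 20.8 FPKM in the wild-type pair and 16.4 and 15.4 FPKM in knockout. Its change was -0.26 (SE 0.14), and it stayed between -0.30 and -0.22 whichever library was left out. The deposited change of -0.40 had an unadjusted limma p-value of 0.0247. After median-ratio scaling the limma p-value was 0.045, and after upper-quartile scaling 0.167. Mars1 overlaps Ddit3 over 71 bases, and Ddit3, which encodes the stress factor CHOP, stood at 33.0 and 32.04 FPKM in the wild-type pair and 33.6 and 31.2 FPKM in knockout. Eprs (Entrez 107508, chromosome 1, 185361417 to 185428360) joins the glutamate and proline enzymes in a single chain. It measured 64.6 and 57.3 FPKM in the wild-type pair against 51.9 and 40.7 FPKM in knockout (change -0.26, SE 0.18).

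The other 6 complex members had smaller changes. Kars, the lysine enzyme of both compartments, measured 40.8 and 41.1 FPKM in the wild-type pair and 35.4 and 32.04 FPKM in knockout (change -0.14, SE 0.15). Lars, the leucine enzyme, measured 29.5 and 24.6 FPKM against 24.6 and 20.4 FPKM, and Iars, the isoleucine enzyme, 37.2 and 37.1 FPKM against 35.2 and 28.2 FPKM. In these 3 genes the knockout values were all lower than the wild-type values, in Lars by a narrow margin (24.59 against 24.64 FPKM) that median-ratio scaling turned into overlap. Dars, the aspartate enzyme, measured 32.8 and 36.1 FPKM in the wild-type pair and 35.7 and 27.3 FPKM in knockout. Qars, the glutamine enzyme, measured 36.2 and 37.6 FPKM against 37.4 and 27.8 FPKM. Rars, the arginine enzyme and the most abundant transcript of the family, measured 125 and 117 FPKM against 131 and 83.0 FPKM. In Dars, Qars and Rars knockout replicate 1 lay within or above the wild-type values and knockout replicate 2 was lowest.

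**Figure D2:**
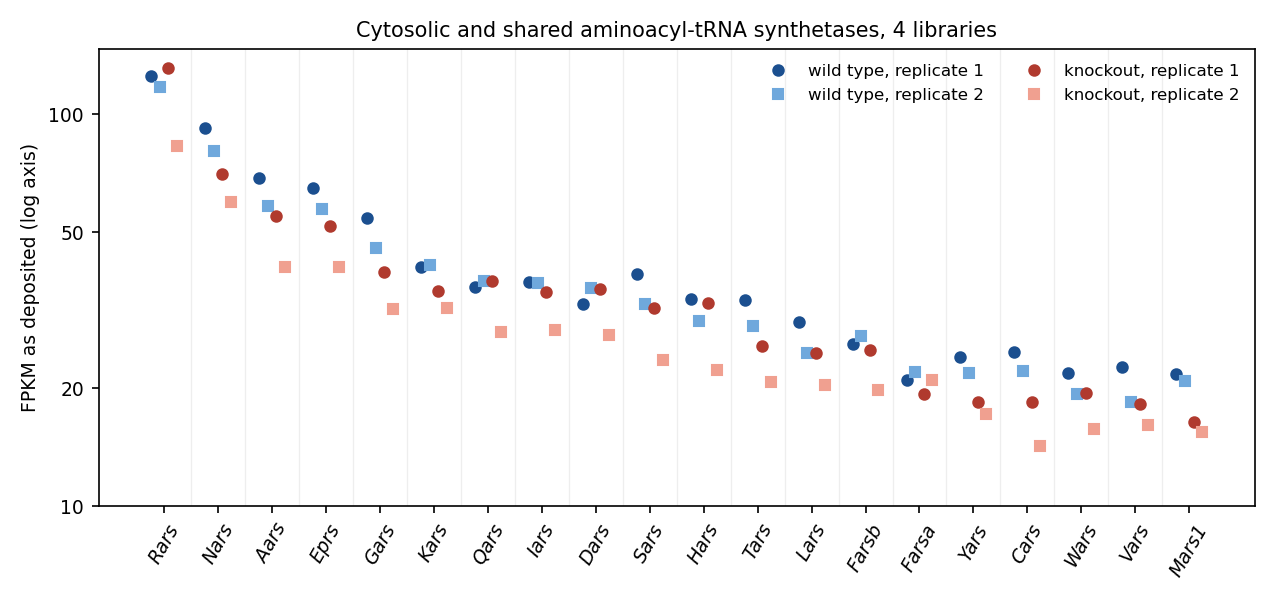
FPKM as deposited (log axis) is shown for the 20 cytosolic and shared synthetase genes in each of 4 libraries, ordered by mean level. Knockout replicate 2 is the lowest point in 19 of 20 genes and wild-type replicate 1 the highest in 14 of 20, and Rars stands above the rest at 83.0 to 131 FPKM.

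The order of the libraries was shared across the cytosolic class. In the deposited values 14 of 20 genes had the 2 knockout values under the 2 wild-type values and 0 had them above, where 35.6% and 4.14% of all tested genes did. Knockout replicate 2 was the lowest library in 19 of 20 genes (60.6% of all tested genes), and wild-type replicate 1 the highest in 14 of 20 (34.9%). Knockout replicate 1 alone was under both wild-type values in 15 of 20 genes, against 44% of tested genes, and knockout replicate 2 alone in 19 of 20, against 69.7%. After median-ratio scaling 10 of 20 had the 2 knockout values under the 2 wild-type values and 0 had them above, against 15.3% and 14% of tested genes. Knockout replicate 2 was then lowest in 15 of 20 genes (29.5% of tested genes), and wild-type replicate 1 highest in 13 (25.8%). On that scale knockout replicate 1 alone was under both wild-type values in 11 of 20 (32.5%) and knockout replicate 2 in 18 (36.1%). The 2 catalytic classes of synthetase, which differ in the fold of their active site, had cytosolic medians of -0.10 (class I, 9 genes) and -0.18 (class II, 10 genes), with Eprs belonging to both. The part of the low Entrez share of knockout replicate 2 in these values was not tested. Without that library 16 of 20 cytosolic and 9 of 14 tested mitochondrial genes lay below the median gene. The difference between the class medians was then -0.08, against -0.21 with all libraries.

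The mitochondrial synthetases were listed at lower levels, with changes of both signs that did not pass the test. Their mean levels ran from 0.37 FPKM for Nars2 to 19.8 FPKM for Iars2, with a median of 3.42 FPKM over 17 genes. The cytosolic members ran from 18.6 to 114 FPKM with a median of 30.8 FPKM, so Iars2 alone reached the cytosolic range. On the log2(FPKM + 1) scale a change in a gene near 1 FPKM is understated. In the deposited values the 2 knockout values were under the 2 wild-type values in 4 of 14 tested genes and above in 1, against 35.6% and 4.14% of all tested genes. After median-ratio scaling the counts were 2 and 2, where 15.3% and 14% of all tested genes were lower and higher.

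**Figure D3:**
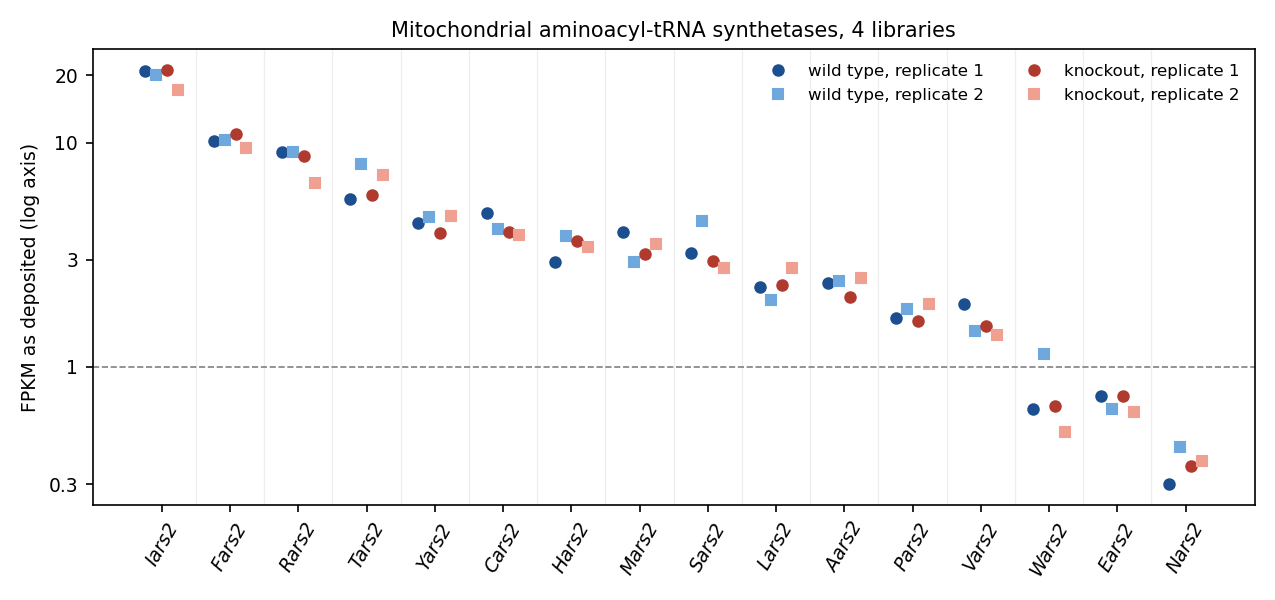
FPKM as deposited (log axis) is shown for 16 mitochondrial synthetase genes in each of 4 libraries, ordered by mean level, with a dashed line at 1 FPKM. The libraries of the 2 genotypes intermix in most genes, and Wars2, Ears2 and Nars2 have means under the line, at 0.742, 0.69 and 0.37 FPKM.

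The most abundant mitochondrial members were Iars2, Fars2 and Rars2. Iars2 (Entrez 381314, chromosome 1, 185286642 to 185329419), the isoleucine enzyme, measured 21.0 and 20.0 FPKM in the wild-type pair and 21.1 and 17.2 FPKM in knockout. Fars2, the single-chain phenylalanine enzyme, measured 10.1 and 10.2 FPKM against 10.9 and 9.43 FPKM. Rars2, the arginine enzyme, measured 9.07 and 9.11 FPKM against 8.72 and 6.62 FPKM. Of these 3 genes, Rars2 alone had non-overlapping genotypes, lower in knockout, and after median-ratio scaling its libraries overlapped. The same scaling separated Fars2, which stood at 9.63 and 9.69 scaled FPKM in wild type and 10.8 and 10.5 scaled FPKM in knockout.

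Sars2 and Cars2 were also below the median gene. Sars2, the serine enzyme, measured 3.23 and 4.48 FPKM in the wild-type pair and 2.97 and 2.76 FPKM in knockout, and its change of -0.18 (SE 0.18) became 0.00058 without wild-type replicate 2. Cars2, the cysteine enzyme, measured 4.85 and 4.12 FPKM against 4 and 3.89 FPKM. The change of Cars2, -0.0064, was smaller than its standard error of 0.15. The genotypes did not overlap in Sars2 or Cars2 in the deposited values. After median-ratio scaling they overlapped in Cars2, and in Sars2 only a very narrow margin was left (3.069 against 3.072 scaled FPKM).

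Lars2 (Entrez 102436, chromosome 9, 123366927 to 123462675), the leucine enzyme, was the member with the most positive change. It measured 2.27 and 1.98 FPKM in the wild-type pair and 2.31 and 2.76 FPKM in knockout, a change of +0.32 (SE 0.18) that lay at the 94.2th percentile of all tested genes. As deposited its log2 change was +0.18, with an unadjusted limma p-value of 0.358. Both of its knockout libraries exceeded both wild-type libraries, by 0.04 FPKM at the nearest. Hars2, the histidine enzyme, measured 2.94 and 3.85 FPKM against 3.66 and 3.43 FPKM, and Pars2, the proline enzyme, 1.66 and 1.81 FPKM against 1.60 and 1.90 FPKM. The genotypes overlapped in Hars2 and Pars2, whose changes were +0.20 (SE 0.17) and +0.15 (SE 0.19). Hars2 and Hars overlap by 4 bases.

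The other 5 tested mitochondrial genes had overlapping genotypes. Tars2 (threonine) measured 5.59 and 8 FPKM in the wild-type pair and 5.83 and 7.15 FPKM in knockout, with replicate 2 above replicate 1 in each genotype. Yars2 (tyrosine) measured 4.38 and 4.67 FPKM against 3.97 and 4.72 FPKM, and Mars2 (methionine) 4.01 and 2.94 FPKM against 3.20 and 3.55 FPKM. Aars2 (alanine) measured 2.36 and 2.41 FPKM against 2.04 and 2.48 FPKM. These 4 genes had changes between +0.08 and +0.12, each smaller than its standard error. Vars2 (valine) measured 1.90 and 1.45 FPKM against 1.52 and 1.38 FPKM, with a change of +0.02 that turned to -0.02 after median-ratio scaling.

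The 3 genes left out of the test were low in every library. Ears2, the glutamate enzyme, was listed at 0.74 and 0.65 FPKM in the wild-type pair and 0.74 and 0.63 FPKM in knockout. Nars2, the asparagine enzyme, was listed at 0.30 and 0.44 FPKM against 0.36 and 0.38 FPKM. Wars2, the tryptophan enzyme, was listed at 0.65 and 1.14 FPKM against 0.67 and 0.51 FPKM, with wild-type replicate 2 apart from the rest. The files hold no counts, so the number of fragments behind these low values is unknown.

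Comparing the cytosolic and mitochondrial genes as a share or ratio of FPKM within each library removes the scaling between libraries. Summed over members, cytosolic synthetases held 849 and 778 FPKM in the wild-type pair and 742 and 578 FPKM in knockout. Mitochondrial synthetases held 79.0 and 81.1 FPKM against 77.2 and 71.8 FPKM. As a share of all synthetase FPKM, the mitochondrial members made up 8.51% and 9.44% in wild type and 9.43% and 11.1% in knockout, and knockout replicate 1 stood between the wild-type libraries. The sum is weighted to abundant genes, among them Rars, which was highest in knockout replicate 1. The share of Entrez-numbered FPKM on cytosolic members was 0.314% and 0.275% in wild type and 0.278% and 0.253% in knockout, and it overlapped for the same pair of libraries.

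With each gene weighted equally, the result depended on the summary. On the log2(FPKM + 1) scale used for these summaries, the scaling between libraries is not fully removed. The cytosolic minus mitochondrial difference in median log2(FPKM + 1) level was 2.80 and 2.69 in wild type against 2.86 and 2.41 in knockout, so the genotypes overlapped and knockout replicate 1 was highest. For a second summary, each gene was expressed as its deviation from its own mean over the libraries, and each library was centred on the median of all tested genes. The median deviation of the cytosolic class was 0.17 and 0.04 in wild type and -0.03 and -0.15 in knockout. The mitochondrial class stood at -0.06 and -0.04 in wild type and at -0.05 and 0.10 in knockout, with overlapping genotypes. The cytosolic minus mitochondrial difference of these deviations was 0.23 and 0.07 in wild type against 0.03 and -0.24 in knockout. Within a genotype this difference had a pooled SD of 0.16, and the gap between knockout replicate 1 and wild-type replicate 2 was smaller than that. The difference between the class medians of the fitted changes was -0.21 as deposited, -0.184 after median-ratio scaling and -0.177 after upper-quartile scaling. It was -0.08 without knockout replicate 2, -0.38 without knockout replicate 1, -0.19 without wild-type replicate 1 and -0.29 without wild-type replicate 2.

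**Figure D4:**
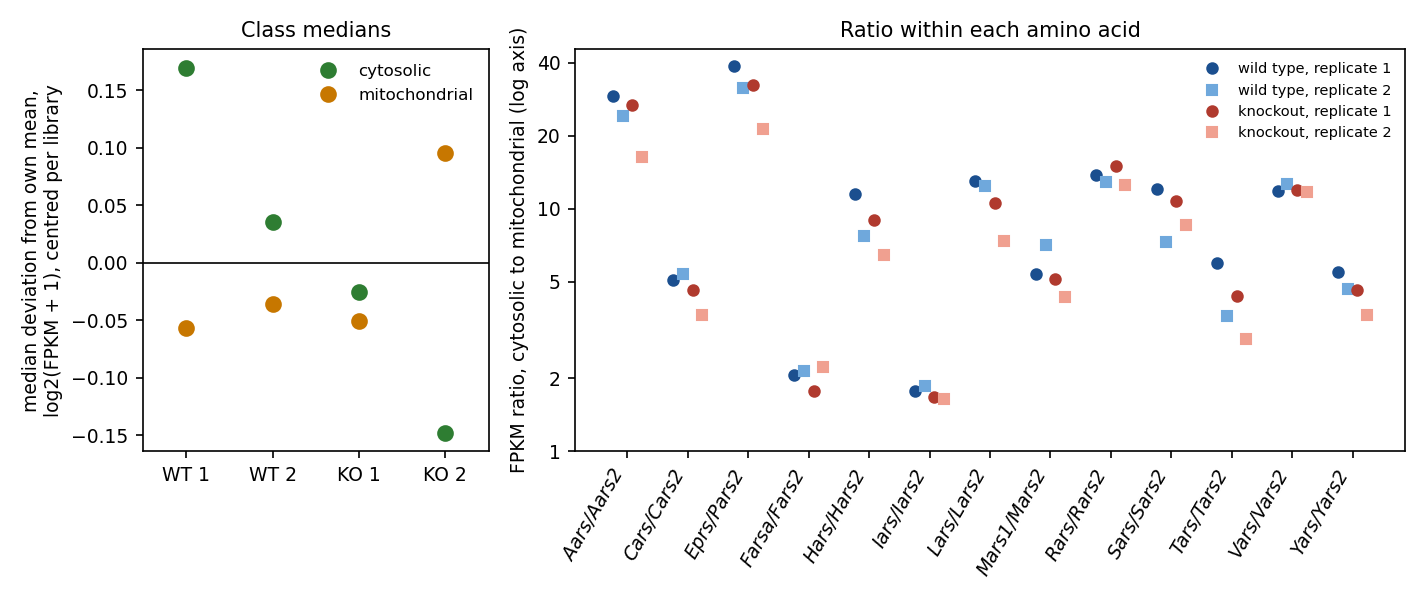
Left, the median deviation of each class from its genes' own means, on the log2(FPKM + 1) scale and centred on all tested genes, in each of 4 libraries: the cytosolic class goes from 0.17 in wild-type replicate 1 to -0.15 in knockout replicate 2. Right, the FPKM ratio (log axis) of the cytosolic to the mitochondrial gene for 13 amino acids in each library, with knockout replicate 2 lowest in 11 of 13.

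For 17 amino acids the tables hold a cytosolic and a mitochondrial gene, Eprs serving for both glutamate and proline and Farsa standing for the phenylalanine enzyme. In 14 of them the mitochondrial gene was tested, and the ratio of the cytosolic to the mitochondrial gene ran from 1.64 to 38.9. Both knockout ratios lay below both wild-type ratios in 5 of 14 and above in 0. No share over all genes was computed for such ratios, so the count is a description only. The 5 were cysteine, isoleucine, leucine, methionine and tyrosine. For leucine the ratio was 13 and 12.4 in wild type and 10.6 and 7.39 in knockout, the joint outcome of lower Lars and higher Lars2 values. For cysteine it was 5.09 and 5.36 against 4.62 and 3.66, and for methionine 5.41 and 7.09 against 5.12 and 4.34. For tyrosine it was 5.49 and 4.69 in wild type against 4.64 and 3.63 in knockout, and for isoleucine 1.77 and 1.86 against 1.67 and 1.64. In the tyrosine and isoleucine pairs the nearest libraries of the 2 genotypes were close together. Arginine went the other way on average, with a mean ratio of 13.3 in wild type and 13.8 in knockout, and with overlapping libraries.

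Genes that work beside the synthetases did not all share the lower cytosolic values. The 3 scaffold proteins of the multisynthetase complex had 1 member below the median gene. Aimp1 measured 25.1 and 23.8 FPKM in the wild-type pair and 21.2 and 17.9 FPKM in knockout, a change of -0.17 (SE 0.15). Aimp2 measured 10.6 and 11.3 FPKM against 11.0 and 9.87 FPKM, and Eef1e1 15.1 and 18.0 FPKM against 17.3 and 15.6 FPKM, with changes of +0.07 and +0.13. Of 9 tested genes for editing or later change of charged tRNA and for related domains, 2 were under the median gene and the median change was +0.13. This list includes Tarsl2, a threonine synthetase-like gene that the symbol rule did not take, with a change of +0.06. Qrsl1, a subunit of the enzyme that completes mitochondrial glutamine tRNA, for which the family has no synthetase of its own, measured 1.59 and 2.00 FPKM in the wild-type pair and 1.62 and 0.26 FPKM in knockout. Its low value rested on knockout replicate 2. Dtd2 and Dtd1, which remove wrongly attached amino acids, had changes of +0.30 and -0.09.

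Downstream and upstream steps were counted from further lists. All 10 cytosolic elongation and termination genes were under the median gene and their median change was -0.09. Eef2k had -0.18, Eef2 -0.14 and Abce1 -0.12. Of 10 matched mitochondrial elongation genes 8 were tested and 5 were under it, and their median change was -0.06. Gfm2 had -0.15, Tufm -0.10 and Mrrf -0.07. Of 22 genes of tRNA maturation and export 20 were tested and 9 were under it, and their median change was 0.0041. Within that list the ribonuclease P genes Rpp21 and Pop5 had changes of -0.27 and -0.25, and Xpot, the tRNA exporter, -0.24. In none of these lists did limma call a gene over all tested genes, and at an unadjusted p under 0.05 they held 2 lower genes, Rpp21 and Pop5, and 0 higher, where 3.52% and 0.705% of all tested genes were. After median-ratio scaling neither gene was under 0.05, with limma p-values of 0.0884 and 0.0609.

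The list of other genes linked to ATF4, Atf4 among them, had a more negative median change than the cytosolic synthetases. Of 22 genes of amino acid metabolism and the stress response linked to ATF4, 18 were tested, 16 lay below the median gene, and the median was -0.32, against -0.13 for the cytosolic synthetases. Gdf15, Eif4ebp1 and Pck2, the 3 with the smallest p, had changes of -0.58, -0.39 and -0.39. Atf4 itself had -0.19 (SE 0.19). The 2 genes above the median gene were Ddit3 (+0.13) and Slc3a2 (+0.04). By limma 0 of 18 passed over all tested genes, and 7 were lower at an unadjusted p under 0.05, where 3.52% of all tested genes were. After median-ratio scaling 6 were, against 1.4% of all tested genes. In the deposited values both knockout values were under both wild-type values in 10 of 18 genes, against 35.6% of all tested genes. In the other 8 genes the libraries overlapped. After median-ratio scaling the knockout values were lower in 8 genes and higher in 1, against 15.3% and 14% of all tested genes. The list was chosen with earlier results of these data known, so its median and counts are a description only. How far the list leaned on single libraries, and whether its genes and the synthetases differ, was not tested.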

How the data were processed

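Stranded libraries were primed at random from rRNA-depleted total RNA, per the labels' protocols. The authors deposited FPKM values, 1 table for each library, rounded to 2 decimals. HISAT, StringTie, Bowtie2, RSEM and mm10 appear in the submitters' processing notes. Versions, annotation and counting by strand are not given in the sources used here. Genes missing from a table counted as 0. No table gives counts, so the depth behind a value is unknown. RefSeq GRCm38.p6 supplied symbols for 15094 of 15114 Entrez-numbered genes.

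The 9501 genes averaging 1 FPKM or more entered limma 3.58.1 (R 4.3.3) as log2(FPKM + 1), two-sided, with a variance trend, no block and Benjamini-Hochberg adjustment at 0.05. The fit was also run on simulated data, and no result above rests on that run. Members and lists were chosen with earlier results of these data known. All members are described except 1 mitochondrial gene, which enters the class values but is not reported here on its own. From each other list the scaffold genes or the 3 genes with the smallest p are named, and Tarsl2, Atf4, Ddit3 and Slc3a2 are named besides. List medians and counts carry no test. Alternatives covered scaling, pseudocount, filters, the replicate block and each library left out.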

Additional observations from a re-analysis of the deposited data

How the results depend on the processing

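Across 13 alternatives, limma called 0 synthetases at an adjusted p of 0.05 in every fit (lowest adjusted p = 0.395, without knockout replicate 1). Over all genes, 2 were called as deposited, 0 among genes listed in all 4 libraries (400 at an unadjusted p under 0.05), 14 with the replicate number as a block and 2 to 43 with 1 library left out. The replicate block left the class medians as they were by construction, since each replicate number occurs once in each genotype. Same-numbered libraries had deviations correlated at 0.0698 over genes, and the numbers were not taken to pair them. With 1 library left out, the cytosolic median ran from -0.25 to -0.10, the mitochondrial median from -0.0231 to 0.174, and their difference from -0.381 to -0.0773. With all listed features the reference median moved to -0.0151 by construction, and the class medians became -0.251 and -0.0391, while with no filter the mitochondrial median was 0.0082, over 17 genes.

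In 18 of 34 genes the direction relative to the median gene turned under some alternative, in 41 of 432 pairs of a gene and an alternative. None of these pairs had a call. Beyond the changed reference and the smaller samples the cause of the turns was not tested. With all listed features Dars, Farsa, Aars2, Iars2, Mars2, Tars2, Vars2 and Yars2 had -0.121, -0.0732, -0.0424, -0.0824, -0.00824, -0.0306, -0.107 and -0.0357. With no filter Dars, Farsa, Iars2 and Vars2 had -0.0771, -0.0293, -0.0385 and -0.0632. Vars2 had -0.0228 after median-ratio scaling with or without the replicate block, -0.0396 after upper-quartile scaling and -0.0288 with a pseudocount of 0.1. With 1 library left out the ranges were -0.109 to 0.11 for Dars, -0.0873 to 0.184 for Farsa, -0.277 to 0.117 for Hars, -0.251 to 0.00702 for Lars, -0.178 to 0.0783 for Qars, -0.325 to 0.17 for Rars, -0.25 to 0.0364 for Vars and -0.175 to 0.00117 for Wars. They were -0.0971 to 0.255 for Aars2, -0.111 to 0.0882 for Cars2, -0.0223 to 0.1 for Iars2, -0.0654 to 0.288 for Mars2, -0.0145 to 0.3 for Pars2, -0.19 to 0.0041 for Rars2, -0.366 to 0.000579 for Sars2, -0.132 to 0.31 for Tars2, -0.113 to 0.138 for Vars2 and -0.0942 to 0.266 for Yars2.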
